A study of Homo sapiens with 20 samples.

Results

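The transcripts described here encode the nuclear part of the mitochondrial respiratory chain. Members were chosen by gene symbol alone: NDUFA, NDUFB, NDUFC, NDUFS and NDUFV genes of complex I, SDHA to SDHD genes of complex II, UQCR genes of complex III, COX4 to COX8 genes of complex IV and ATP5 genes of the ATP synthase, with pseudogenes left out. This gave 172 probe sets of 89 genes among the 54675 probe sets of the array. A probe set is a group of short probes that reads 1 stretch of a transcript. Probe sets of 1 gene were kept apart, and 50 of the 89 genes had more than 1. The symbols also take in 21 probe sets of 12 assembly factors (NDUFAF and SDHAF genes), which are described separately from the subunits. All other members are called subunits from their symbols alone, ATP5IF1 and COX7A2L included. Of the 172 probe sets, 152 of 86 genes had a mean signal above the 40th percentile of the array and were tested. The 20 others included the only probe set of COX6A2, of COX7B2 and of COX8C. Some genes of the rule, SDHB and UQCRFS1 among them, had no probe set with 1 annotated symbol and were not analysed.

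All 20 arrays hold RNA of U2OS, an established human osteosarcoma line. Control cells were compared with cells kept in hypoxia below 0.1% oxygen, cells given tunicamycin at 2.5 ug/ml, cells given emetine at 100 ug/ml and cells depleted of UPF1, named shRent1 in the labels. Tunicamycin blocks N-linked glycosylation and stresses the endoplasmic reticulum, emetine blocks translation elongation, and UPF1 (Rent1) is the helicase of nonsense-mediated mRNA decay. In every condition, control included, 1 array was made at 0 hr without DRB, an inhibitor of transcription elongation, and 1 each after 1.5, 3 and 4.5 hr of DRB at 100 ug/ml. The labels give a duration of 3 hr for the treatments. They name no control hairpin for shRent1, and every condition and time has 1 array. A transcript's change after DRB was summarised as a slope in log2 intensity per hr, and its level as the difference from control at DRB addition, both from lines fitted to the 20 arrays with limma. Errors are standard errors, the adjusted p-values are limma's after Benjamini-Hochberg adjustment over all 32770 probe sets tested, and a probe set passed at 0.05. These p-values measure the scatter of single arrays about lines, and nothing in the labels says that the arrays came from separate cultures. A difference between cultures or array batches and one between conditions cannot be told apart. Nor can fewer cells of a kind and less RNA per cell in bulk RNA.

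Complexes I to IV pass electrons from NADH and succinate to oxygen. Complexes I, III and IV also pump protons, and the ATP synthase uses the resulting gradient. Most subunits are made from nuclear genes, translated in the cytosol and imported. Assembly factors help to build the complexes but are not part of the finished enzymes. In many cells low oxygen lowers respiration through HIF-1, which among other acts induces PDK1, the kinase that shuts pyruvate out of the citric acid cycle, and the isoforms COX4I2 and COXFA4L2 (formerly NDUFA4L2). RMA sets the arrays to a common scale, so slopes are relative to that scale and a slope above 0 does not mean new synthesis. On this scale the median slope of all probe sets tested was itself above 0, at 0.03 per hr in control and tunicamycin and 0.02 in the others, and member slopes are read against it.

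Arrays differed in ways that go with the conditions. The log2 ratio of the 3' to the 5' probe set of ACTB, a sign of RNA or labelling quality, was 0.55 ± 0.10 in control (mean ± SD, n = 4 arrays), 0.54 ± 0.11 in tunicamycin, 1.24 ± 0.06 in shRent1, 2.04 ± 0.13 in hypoxia and 2.04 ± 0.19 in emetine. For GAPDH the same ratio differed far less: 0.04 ± 0.04 in control, 0.00 ± 0.04 in tunicamycin, 0.07 ± 0.02 in shRent1, 0.15 ± 0.04 in hypoxia and 0.11 ± 0.03 in emetine. The part of RNA or labelling quality in the level differences given here was not tested. UPF1 itself read 8.46 to 8.62 in control and 6.48 to 7.41 in shRent1 (211168_s_at), with a fitted level difference of -1.31 ± 0.17 (limma adjusted p = 0.000634). Of 10 matched mesenchymal and bone markers 9 were above the signal filter, and COL1A2 was below it. Markers of other cell types were above the filter for 4 of 6 epithelial genes (EPCAM up to 8.90), 3 of 5 matched blood genes (HBB up to 7.13), 2 of 4 endothelial genes (PECAM1 up to 6.70), 3 of 5 matched muscle genes (CKM up to 6.06) and 3 of 5 neural and liver genes (SYP up to 7.25). PTPRC and CD14 of blood, CDH5 and KDR of endothelium and ALB and APOA1 of liver were below it. CD3E, HBB and ITGAM of blood and PECAM1 and VWF of endothelium were above it. The bone markers SP7 and IBSP were above it with highest values of 5.27 and 5.21, so the filter does not separate tissues.

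After DRB most subunit slopes were above 0: 118 of the 134 tested subunit probe sets in control (88.1%), 119 in hypoxia, 120 in both tunicamycin and shRent1, and 121 in emetine (90.3%). Over all probe sets the share above 0 was 61.2% in control and lay between 58.9% (shRent1) and 66.5% (emetine) in the other conditions. In control 47 of the 152 members rose relative to the array and 12 fell, against 11.2% and 13.9% of all probe sets tested. That is 30.9% of the members rising. The count was 48 rising and 7 falling in hypoxia (all probe sets: 12.2% and 11.3%), 48 and 4 in tunicamycin (8.55% and 9.83%) and 45 and 9 in shRent1 (7.67% and 13.3%). The share differed by kind of probe set. In control 41.2% of the 68 members named _s_at or _x_at rose and 2.9% fell, and 22.6% and 11.9% of the 84 others. Rising shares of the 2 kinds were 45.6% and 20.2% in hypoxia, 36.8% and 27.4% in tunicamycin and 38.2% and 22.6% in shRent1. This difference was not tested. The median slope of the members was 0.06 in control and 0.03 over all probe sets tested. Member signals are high, and 97 of them lay above the 90th percentile of the array. Of those 97, 39.2% rose in control, and of all 5443 probe sets in that range 12.5% rose. Leaving out the 0 hr or the 4.5 hr array of a condition shortens its time course, and in control 7 or 10 members then passed in place of 59. Of all probe sets 6.11% or 12.4% passed in control with these arrays left out, and the members' shares, 4.61% and 6.58%, were below that. In hypoxia 5 or 7 of 55 then passed (all probe sets: 5.33% or 6.22%), in tunicamycin 2 or 10 of 52 (1.89% or 9.57%) and in shRent1 4 or 7 of 54 (5.19% or 5.51%). The members' shares were below these too, from 1.32% to 6.58%. These shares take rising and falling calls together. Rising members alone numbered 1 or 2 in control, where 146 or 1325 of all 32770 probe sets rose. In hypoxia they were 2 or 4 (all probe sets: 385 or 780), in tunicamycin 0 or 7 (22 or 1073) and in shRent1 1 or 3 (all probe sets not given). Rising calls of members thus depended on the first and last arrays of a condition, and those of all probe sets dropped too in control, hypoxia and tunicamycin. With each array centred on the cytosolic ribosomal proteins, 18 members rose and 10 fell in control (all probe sets: 5.78% and 12.2%), 29 and 7 in hypoxia (7.36% and 10.3%), 14 and 6 in tunicamycin (1.67% and 9.86%) and 16 and 8 in shRent1 (3.42% and 11.5%). The rising shares of the members were then between 9.21% (tunicamycin) and 19.1% (hypoxia).

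The rising members came from all 5 complexes. In control they were 21 of 53 probe sets of complex I, 4 of 9 of complex II (all of SDHC, a membrane anchor), 3 of 11 of complex III, 8 of 25 of complex IV and 10 of 36 of the ATP synthase. Only 1 of 18 probe sets of assembly factors rose in control, that of NDUFAF3, and 7 fell. Across control, hypoxia, tunicamycin and shRent1, 26 probe sets of 21 genes rose in each, which is 17.1% of the members, and 1.63% of all probe sets did so. They cover 11 genes of complex I (among them NDUFA1, NDUFA3, NDUFA7, NDUFA13, NDUFB7, NDUFB10 and the iron-sulfur subunit NDUFS7), UQCRB and UQCR11 of complex III, COX4I1, COX5B, COX6B1 and COX7C of complex IV, and ATP5F1D, ATP5ME and ATP5MJ of the ATP synthase. NDUFAF3 was the 1 assembly factor among the 21 genes. Conditions use separate arrays, but the fits share 1 estimate of the spread.

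**Figure D1:**
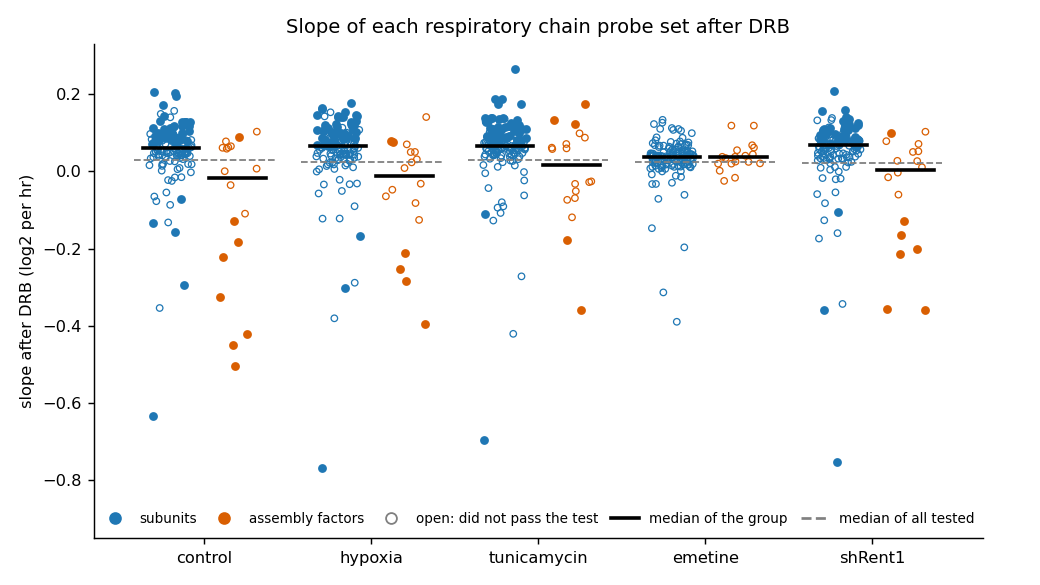
Slope of each tested probe set after DRB (y axis, log2 intensity per hr) in each of the 5 conditions, with subunits in blue and assembly factors in orange. Filled points passed limma's test and open points did not; black bars are group medians and dashed lines the median of all probe sets tested. Subunit medians sit above the dashed line in all 5 conditions. In emetine no member is filled, and the most negative assembly factors of control lie near 0.

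NDUFA3, a small accessory subunit of complex I, shows the pattern. Its signal (218563_at) was 9.73, 9.90, 10.23 and 10.34 at the 4 times in control, 9.74, 10.04, 10.33 and 10.45 in hypoxia, 9.44, 9.72, 9.88 and 10.07 in tunicamycin and 9.85, 10.02, 10.28 and 10.36 in shRent1. In emetine it was 9.62, 9.74, 9.76 and 9.80. The signal climbed at every step in each condition, and the emetine course covered the smallest range. Slopes were 0.14 ± 0.02 in control (limma adjusted p = 0.000922), 0.16 ± 0.02 in hypoxia, 0.14 ± 0.02 in tunicamycin and 0.12 ± 0.02 in shRent1. UQCRB, a subunit of complex III, was among the steepest at 209065_at, with 7.52, 8.01, 8.23 and 8.46 in control and a slope of 0.20 ± 0.03 (adjusted p = 0.000623). Without the control array at 0 hr the UQCRB slope no longer passed (adjusted p = 0.104). COX4I1, the ubiquitous form of the largest nuclear subunit of complex IV, moved little: 12.45, 12.52, 12.62 and 12.73 in control at 200086_s_at, a slope of 0.06 ± 0.02 (adjusted p = 0.049). Its 3 other tested probe sets did not pass in control, and the call of 200086_s_at was lost without any 1 of 19 of the 20 arrays.

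The complex II subunits with member probe sets, SDHA, SDHC and SDHD, did not move as 1. SDHB had no member probe set and was not analysed. SDHA, the flavoprotein that oxidises succinate, read 11.05, 10.87, 10.81 and 10.70 in control at 201093_x_at and 10.89, 10.76, 10.67 and 10.37 in tunicamycin. It thus declined at each step, with slopes of -0.07 ± 0.02 (limma adjusted p = 0.0392) in control, -0.11 ± 0.02 (0.00771) in tunicamycin and -0.10 ± 0.02 (0.00758) in shRent1. In hypoxia the SDHA slope was -0.05 and in emetine 0.01, and neither passed. SDHC rose in control at 4 of its probe sets by 0.13 to 0.21 per hr, while its 232107_at fell by 0.13 per hr. The steepest, 238056_at, read 6.07, 7.04, 6.73 and 7.20 in control, and without the 0 hr array its slope was 0.05 and did not pass. SDHD, the other anchor, read 11.52, 11.76, 11.51 and 11.68 in control at 202026_at, with no slope past the threshold in any condition. SDHA and both anchors thus gave a falling, a mixed and an uncalled set of values.

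In emetine no member passed in either direction by limma (0.165% of all probe sets rose and 1.6% fell, 1.76% together). At an unadjusted p under 0.05 there were 27 members, a count without the share of all probe sets. With a robust, trended variance 3 members passed, where 560 of all 32770 probe sets did. The median member slope in emetine was 0.04, and 137 of 152 slopes were above 0 (90.1%, against 66.5% of all probe sets). The slope difference between emetine and control was tested for each probe set. Of the 134 subunit probe sets 1 passed above control, NDUFV3 226209_at, and none passed below it. The estimate was below control for 102 of the 134 (76.1%, against 53.5% of all probe sets), and alternative settings called up to 3 members below, as given with the assembly factors.

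Among the assembly factors several transcripts were lost quickly. SDHAF1, which helps to insert iron-sulfur clusters into complex II, fell from 8.50 through 7.99 and 7.01 to 6.30 in control at 44669_at, so that 21.8% of the starting intensity was left at 4.5 hr. The series was 8.38, 7.82, 7.16 and 6.62 in hypoxia, 8.41, 8.18, 7.55 and 6.82 in tunicamycin and 8.69, 8.25, 7.86 and 7.02 in shRent1. In emetine it was 8.45, 8.51, 8.42 and 8.36, with 93.9% left. Starting values lay within 8.38 and 8.69 in all 5 conditions, and the emetine course alone stayed level. Slopes were -0.51 ± 0.04 in control (limma adjusted p = 3.91e-06), -0.40 ± 0.04 in hypoxia, -0.36 ± 0.04 in tunicamycin, -0.36 ± 0.04 in shRent1 and -0.02 ± 0.04 in emetine. The second probe set, 221855_at, gave 28.2% left in control, 60.1% in tunicamycin and 99.9% in emetine. SDHAF1 and 214132_at of ATP5F1C were the members that fell in each of control, hypoxia, tunicamycin and shRent1, 3 probe sets or 1.97% of the members, against 5.08% of all.

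NDUFAF4, an assembly factor of complex I, fell in control, hypoxia and shRent1 and had no slope past the test in tunicamycin or emetine. At 227559_at it read 6.46, 6.22, 5.08 and 4.58 in control, 5.73, 5.44, 4.97 and 4.83 in hypoxia and 6.92, 6.51, 6.05 and 5.29 in shRent1. In tunicamycin it read 6.57, 6.89, 6.47 and 6.58 and in emetine 6.18, 6.12, 6.12 and 6.31. The first 3 conditions fell from start to end, while tunicamycin changed by 0.01 and emetine by 0.13 from start to end. Its other probe set, 219006_at, read 10.04, 9.88, 8.93 and 8.72 in control, 10.18, 10.27, 10.13 and 10.07 in tunicamycin and 10.28, 10.28, 10.32 and 10.37 in emetine. All 4 tunicamycin arrays lay above all 4 control arrays at both probe sets, and these were the 2 members of 152 for which that held, where 4.57% of all probe sets lay wholly above control. The 227559_at signal at 4.5 hr in control, 4.58, is below the filter level of 4.70, where intensities flatten and a fall is understated.

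**Figure D2:**
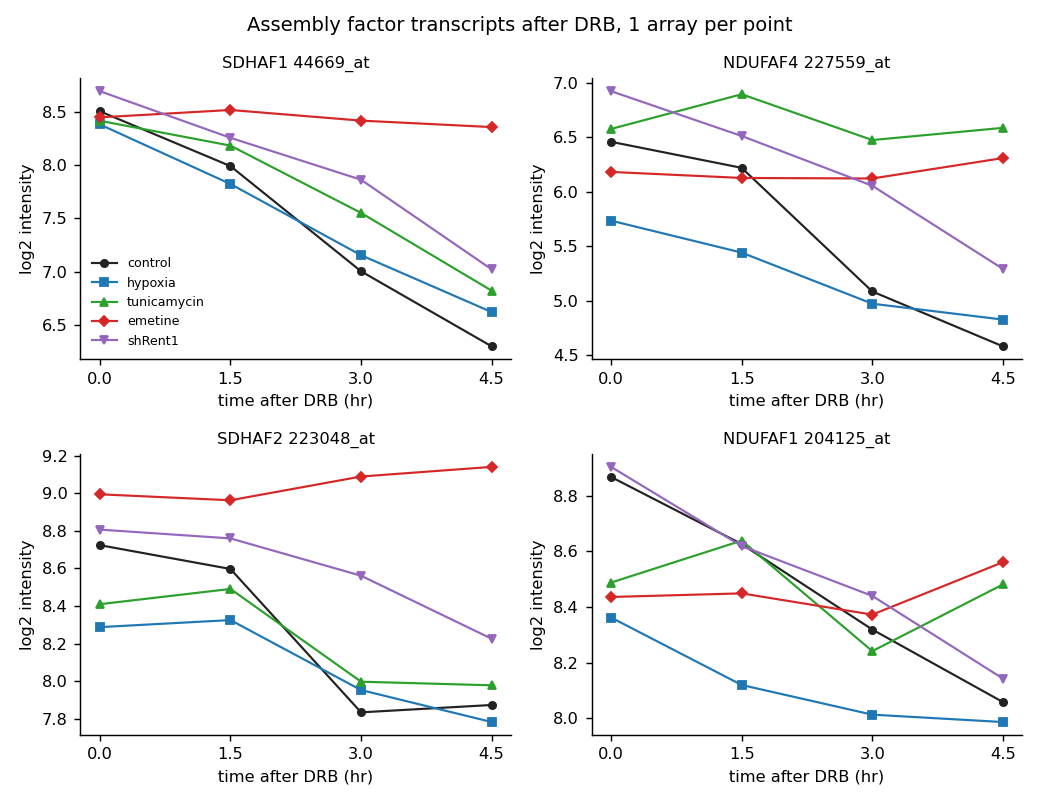
Log2 intensity (y axis) against hours after DRB (x axis) for 1 probe set each of SDHAF1, NDUFAF4, SDHAF2 and NDUFAF1, with 1 line per condition and 1 array per point. SDHAF1 falls in all conditions but emetine, NDUFAF4 stays level in tunicamycin and emetine, and y axes differ between panels and do not start at 0.

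SDHAF2, which attaches the flavin to SDHA, read 8.72, 8.60, 7.83 and 7.87 in control at 223048_at and 8.99, 8.96, 9.09 and 9.14 in emetine. Its 4 emetine arrays were all above the 4 control arrays, as for 18.2% of all probe sets. NDUFAF1, which acts on an early intermediate of complex I, read 8.87, 8.63, 8.32 and 8.06 in control at 204125_at and 8.44, 8.45, 8.37 and 8.56 in emetine. It declined at each step in control and stayed between 8.37 and 8.56 in emetine. Control slopes were -0.22 ± 0.04 for SDHAF2 (limma adjusted p = 0.0028) and -0.18 ± 0.03 for NDUFAF1 (0.00148). NDUFAF7, a methyltransferase of complex I assembly, also fell in control at 223560_s_at (-0.13 ± 0.03, adjusted p = 0.00396).

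Tests of the slope difference gave 7 members whose slope in emetine lay above that in control, where 8.31% of all probe sets did so. The members' share was 4.6%, so the count is not a result about the members as a group. By name, 6 of the 7 were assembly factor probe sets. The differences were 0.48 ± 0.05 and 0.42 ± 0.05 for SDHAF1 (limma adjusted p = 6.06e-05 and 0.00015), 0.48 ± 0.06 and 0.35 ± 0.05 for NDUFAF4 (0.000307 and 0.000706), 0.26 ± 0.05 for SDHAF2 (0.00821) and 0.20 ± 0.04 for NDUFAF1 (0.0117). NDUFV3, an accessory subunit of complex I, was the other at 0.18 ± 0.05 (0.0388). Without the control array at 0 hr, or without the emetine array at 4.5 hr, 4 of the 7 calls were left. Calls over all probe sets dropped from 3236 to 1211 without that control array, 1126 of them above control. The count without the emetine array stands without that of all probe sets. The counts of members above and below control were 7 and 3 after quantile normalization, 7 and 3 with the robust, trended variance, 6 and 3 with the filter at the 60th percentile and 6 and 1 without a filter. Over all probe sets 3211, 3637, 3266 and 3040 differed under these settings, in that order. Of these 2382, 3075, 2818 and 2417 lay above control.

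In tunicamycin 3 member slopes lay above control, where 2.45% of all probe sets did so and 2.74% differed in either direction: both of NDUFAF4, by 0.42 ± 0.06 (limma adjusted p = 0.00331) and 0.29 ± 0.05 (0.00787), and 221855_at of SDHAF1, by 0.24 ± 0.05 (0.0176). At 44669_at of SDHAF1 the difference was 0.15 ± 0.05 and did not pass. Of the 3 calls 1 was left without the control array at 0 hr, and none was left without the tunicamycin array at 0 hr or at 4.5 hr. Calls over all probe sets dropped from 897 to 156, 70 and 206 in that order. The slope differences in tunicamycin and emetine share the control arrays.

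No member's slope differed from control in hypoxia or in shRent1 by limma, where 0.0% and 0.00915% of all probe sets did (0.00305% above and 0.0061% below control in shRent1). At an unadjusted p under 0.05 there were 6 members in hypoxia and 6 in shRent1, counts without the share of all probe sets. The robust, trended variance gave no member in either, where 61 and 31 of all probe sets passed. The largest estimate in shRent1 was 0.22 for SDHAF1 at 221855_at and in hypoxia 0.24 for NDUFAF4 at 227559_at. Median differences over the members were 0.00 in both conditions.

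Mitochondrial ribosomal proteins are another set of nuclear transcripts for imported proteins, read on the same arrays. Of their 133 tested probe sets 7 rose and 24 fell in control, with a median slope of -0.01 (all probe sets: 11.2% and 13.9%). In tunicamycin 38 rose and 4 fell, with a median of 0.07 (all probe sets: 8.55% and 9.83%). There 48 of the 152 members rose and 4 fell, also with a median of 0.07. Of 112 tested probe sets of cytosolic ribosomal proteins 7 rose and 3 fell in control, with a median of 0.02. The difference between these groups and the respiratory chain was not tested.

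Promoter sequence is shown for NDUFA3, which rose after DRB in the 4 conditions above, for SDHAF1, which fell in them, and for COXFA4L2, described with hypoxia. Each is the 250 bases before the transcript start in RefSeq's annotation of GRCh38.p14, read 5′ to 3′ on the gene's strand. NDUFA3 is at chr19:54102605-54102854 (plus strand), SDHAF1 at chr19:35994938-35995187 (plus strand) and COXFA4L2 at chr12:57240763-57241012 (minus strand). Capitals mark the NRF1 motif, which takes any base at its sixth position, in NDUFA3 and the HIF core ACGTG or GCGTG in the others, on either strand.
NDUFA3: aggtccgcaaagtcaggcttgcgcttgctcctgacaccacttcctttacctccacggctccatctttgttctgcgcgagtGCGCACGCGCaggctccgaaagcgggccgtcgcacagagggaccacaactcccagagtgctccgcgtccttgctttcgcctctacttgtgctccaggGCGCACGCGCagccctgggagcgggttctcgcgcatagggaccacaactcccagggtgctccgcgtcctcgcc
SDHAF1: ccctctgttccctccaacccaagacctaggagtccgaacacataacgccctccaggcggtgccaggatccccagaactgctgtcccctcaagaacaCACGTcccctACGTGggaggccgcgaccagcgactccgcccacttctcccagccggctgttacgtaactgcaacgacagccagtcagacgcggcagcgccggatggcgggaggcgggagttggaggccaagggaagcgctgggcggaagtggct
COXFA4L2: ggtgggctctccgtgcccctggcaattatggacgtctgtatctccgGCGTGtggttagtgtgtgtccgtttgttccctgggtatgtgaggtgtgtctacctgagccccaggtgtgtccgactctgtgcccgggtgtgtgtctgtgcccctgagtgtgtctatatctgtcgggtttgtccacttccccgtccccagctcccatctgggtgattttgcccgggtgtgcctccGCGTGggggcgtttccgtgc

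Promoters were found for 77 of the 89 member genes. NRF1 and GABP are activators known for many nuclear respiratory genes, and HIF-1 is the transcription factor of low oxygen. In the window of 300 bases, which adds 50 bases after the start, the NRF1 motif was in 19 of the 77 (24.68%), in 6.28% of all 27305 promoters and in 8.58% of the 15843 protein-coding ones. The GABP motif CCGGAAGT was in 10 of 77 (12.99%), in 4.44% of all and in 6.19% of the protein-coding ones. The HIF core was in 46 of 77 (59.74%), in 48.39% of all and in 55.94% of the protein-coding ones, so the members' share is near that of protein-coding genes. Both NRF1 matches of NDUFA3 contain CACGC, the reverse complement of GCGTG, so the motifs can overlap. A match describes the letters of this window and shows neither binding nor a cause.

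At DRB addition hypoxia had few member calls. COX7A2, a subunit of complex IV, was the 1 higher member (2.35% of all probe sets were higher) and 5 members were lower (4.4% of all, 6.75% in either direction). The lower members were NDUFV3, the assembly factors NDUFAF4 and NDUFAF1, SDHC, and UQCR11 of complex III. The median member difference was -0.05 and that of all probe sets -0.03. The members' count is near the background, and the ACTB ratio was higher in hypoxia than in control. The signal was lower than control at each of the 4 times for 51 members (33.6%, against 22.1% of all probe sets) and higher at each for 26 (17.1%, against 17.5%). As a mean over the 4 times 21 members were lower and 8 higher, 13.8% and 5.26%, against 10.9% and 8.58% of all.

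COX7A2 read 12.25, 12.49, 12.57 and 12.57 in control at 201597_at and 12.69, 12.82, 12.87 and 12.90 in hypoxia. Every hypoxia array was above every control array, where 4.25% of all probe sets were so placed. The fitted difference was 0.40 ± 0.11 (limma adjusted p = 0.0393), which was lost without any 1 of 11 arrays. NDUFV3 at 226209_at read 7.24, 7.33, 7.01 and 6.57 in control and 6.44, 6.32, 6.43 and 6.29 in hypoxia. Its arrays did not overlap either, 7.84% of all probe sets lying wholly below control. The difference, -0.97 ± 0.14 (adjusted p = 0.00231), passed with each array left out in turn. At the other NDUFV3 probe set, 226616_s_at, it was -0.38 ± 0.12 and did not pass. SDHC at 216591_s_at (-0.71 ± 0.19, adjusted p = 0.0487) lost its call without any 1 of 16 arrays. With 1 array left out, the calls dropped from 6 to 1 for either the control or the hypoxia array at 0 hr, to 2 for hypoxia at 1.5 hr and to 3 for hypoxia at 4.5 hr. Calls over all probe sets dropped as well, from 2213 to 172 without the control array and 177 without the hypoxia array at 0 hr. They were 1297 without hypoxia at 1.5 hr and 1541 without hypoxia at 4.5 hr. NDUFAF4 was lower in hypoxia at 227559_at (-0.88 ± 0.17, adjusted p = 0.0101) and not past the test at 219006_at (-0.12 ± 0.14).

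The isoforms known from the HIF response did not pass the test in hypoxia. COX4I2 read 5.18, 5.35, 5.33 and 5.58 in control at 232761_at and 5.002, 5.15, 5.53 and 5.42 in hypoxia. COXFA4L2, which carries no member symbol and is given beside the members, read 6.25, 5.91, 6.41 and 6.42 in control at 218484_at and 6.04, 6.34, 6.56 and 6.55 in hypoxia. The conditions overlapped for both. Level differences were -0.15 ± 0.16 for COX4I2 and 0.02 ± 0.16 for COXFA4L2, and neither passed. COX4I1 differed from control by 0.00 ± 0.09 at 200086_s_at. PDK1 was 12.9-fold and 6.82-fold higher at its 2 strongest probe sets (239798_at, limma adjusted p = 5.45e-06, and 226452_at, 4.35e-05).

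**Figure D3:**
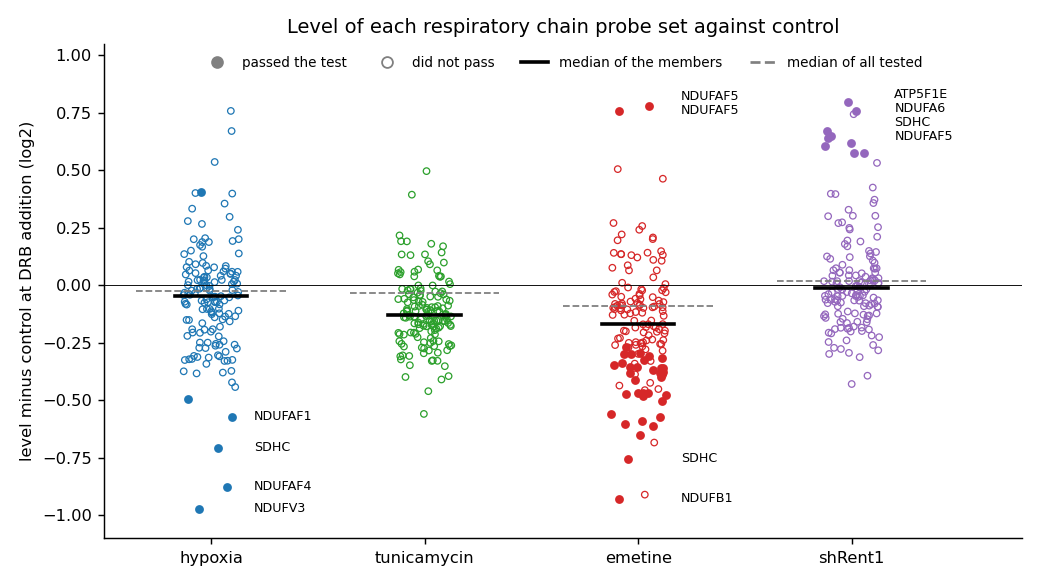
Level of each tested probe set minus control at DRB addition (y axis, log2) in the 4 treated conditions; filled points passed limma's test, black bars are member medians and dashed lines the medians of all probe sets tested. Up to 4 called probe sets with the largest differences are named per condition. Emetine has 34 filled points below 0, tunicamycin has none, and the 9 filled points of shRent1 are all above 0.

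No member's level passed the test in tunicamycin by limma (1.07% of all probe sets were higher and 0.519% lower). At an unadjusted p under 0.05 there were 22 members, a count without the share of all probe sets. The robust, trended variance called 7 members, all lower. That variance called 996 of all 32770 probe sets, 567 of them higher. The median member difference was -0.13 against -0.03 over all probe sets tested, and 125 of 152 estimates were below 0 (82.2%, against 56.4% of all). The signal was lower than control at each of the 4 times for 73 members (48.0%, against 22.3% of all probe sets) and higher at each for 7 (4.61%, against 15.1%). As a mean over the 4 times, 5 members passed as higher and 18 as lower, 3.29% and 11.8%, where 8.14% and 9.66% of all probe sets did so. The estimates with the largest statistics were NDUFA10 1554719_at, -0.56 ± 0.15 (adjusted p = 0.0985), and NDUFAF6 235509_at, -0.41 ± 0.13 (0.142). NDUFA10 at this probe set then rose by 0.27 ± 0.05 per hr after DRB in tunicamycin (adjusted p = 0.00249), from 4.82 through 5.21 and 5.53 to 6.04, a low range of signals.

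In emetine 34 members of 27 genes were lower and 2 were higher, against 18.6% and 16.6% of all probe sets, 35.1% together. The members' shares were 22.4% and 1.3%, and their median difference was -0.17, against -0.09 over all. Among the 5443 probe sets above the 90th percentile of signal 30.7% were lower, and among the 97 members there 25.8%. At DRB addition the share of lower members is thus near the background, and the ACTB ratio was higher in emetine too. Without the control array or the emetine array at 0 hr, 3 members were lower and none higher. Of all 32770 probe sets 4922 then passed without the control array, 2729 of them higher. Without the emetine array 5128 passed, 3009 of them higher. With arrays centred on the ribosomal proteins 21 members were lower and 2 higher, and 10533 of all probe sets passed, 5567 of them higher. As a mean over the 4 times 89 were lower and 10 higher, 58.6% and 6.58%, against 35.9% and 24.2% of all probe sets. The signal was lower than control at each of the 4 times for 97 members (63.8%, against 39.1%) and higher at each for 8 (5.26%, against 24.2%).

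The lower members in emetine came from each complex. The ATP synthase had 10, among them the F1 core subunits ATP5F1A (-0.30 ± 0.09), ATP5F1B (-0.36 ± 0.10) and ATP5F1C (3 probe sets, -0.37 to -0.48) and the c subunit gene ATP5MC3 at 3 probe sets. Complex I had 9, among them the flavin subunit NDUFV1 (-0.38 ± 0.11), NDUFV2 (-0.47 ± 0.12) and both probe sets of NDUFV3. Complex III had 4, complex IV 3, complex II 2 and the assembly factors 6. ATP5F1B read 12.82, 12.93, 12.93 and 13.01 in control at 201322_at and 12.47, 12.51, 12.59 and 12.60 in emetine. NDUFA10, an accessory subunit of complex I, read 10.60, 10.82, 10.89 and 11.16 in control at 217860_at and 9.91, 10.13, 10.37 and 10.37 in emetine. All emetine arrays were below all control arrays for both genes, as for 47 of the 152 members and 22.3% of all probe sets. NDUFA10 differed by -0.65 ± 0.11 (limma adjusted p = 0.000533) and kept its call with each array left out. The largest estimate, NDUFB1 243630_at at -0.93 ± 0.23 (adjusted p = 0.00701), was not shared by 206790_s_at of the same gene (-0.15 ± 0.10), and its signal was below the filter level at 4.5 hr in emetine (6.54, 5.47, 5.37 and 5.11 in control, 5.57, 4.75, 4.75 and 4.58 in emetine).

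NDUFAF5, which modifies the complex I subunit NDUFS7 during assembly, was the gene higher in emetine and also in shRent1. At 227160_s_at it read 8.90, 9.04, 8.83 and 8.97 in control, 9.79, 9.67, 9.80 and 9.94 in emetine and 9.62, 9.45, 9.64 and 9.48 in shRent1. It read 8.64, 8.56, 8.53 and 8.49 in hypoxia and 8.71, 8.77, 8.68 and 9.04 in tunicamycin. Emetine and shRent1 arrays were all above control, hypoxia arrays all below it, and tunicamycin arrays overlapped it. Of all probe sets 18.2% lay wholly above control in emetine, 9.9% in shRent1, and 7.84% wholly below it in hypoxia. Differences from control were 0.78 ± 0.13 in emetine (limma adjusted p = 0.000683) and 0.65 ± 0.13 in shRent1 (0.00985), comparisons that share the control arrays. In hypoxia it was -0.31 ± 0.13, which did not pass. The second probe set, 222894_x_at, gave 0.76 ± 0.15 in emetine (0.00198) and 0.64 ± 0.15 in shRent1 (0.02). Slopes of NDUFAF5 passed in no condition. The emetine calls were lost without the control or the emetine array at 0 hr.

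In shRent1 9 members were higher and 0 lower, against 7.24% and 2.51% of all probe sets. The members' share, 5.9%, is below the background. The signal was higher than control at each of the 4 times for 32 members (21.1%, against 25.5% of all probe sets) and lower at each for 43 (28.3%, against 21.8%). With arrays centred on ribosomal proteins, which moves the median of all probe sets from 0.02 to -0.10, 5 were higher and 3 lower, and after quantile normalization 6 and 3. Of all 32770 probe sets 2850 passed with centring, 1203 of them higher. After quantile normalization 3026 passed, 1673 of them higher. Without adjustment 24 members had p under 0.05, a count without the share of all probe sets. The robust, trended variance called 13 members higher and 8 lower. It called 4004 of all probe sets, 2972 of them higher. Of the 9, 1 was left without the control array at 0 hr and none without the shRent1 array at 0 hr. Calls over all probe sets dropped from 3193 to 369 without that control array, 293 of them higher. The count without the shRent1 array stands without that of all probe sets.

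Of the 7 genes with a higher probe set in shRent1, only NDUFAF5 had all its tested probe sets higher. UQCR11 at 223613_at read 8.14, 8.01, 7.95 and 8.08 in control and 8.60, 8.95, 9.05 and 9.22 in shRent1, while at 202090_s_at it read 10.89, 11.01, 11.15 and 11.31 in control and 10.99, 11.08, 11.26 and 11.47 in shRent1. NDUFA6, an accessory subunit of complex I, read 9.29, 9.17, 9.17 and 9.16 in control at 202000_at and 10.00, 10.01, 10.10 and 10.02 in shRent1. The shRent1 arrays stood apart from control at 223613_at and 202000_at, as for 9 of 152 members and 9.9% of all probe sets, and overlapped it at 202090_s_at.

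Fitted differences in shRent1 were 0.58 ± 0.12 for UQCR11 223613_at (limma adjusted p = 0.0129) against 0.07 ± 0.09 for 202090_s_at. For NDUFA6 they were 0.76 ± 0.11 at 202000_at (0.00193) and 0.07 ± 0.10 at 202001_s_at. ATP5F1E, the epsilon subunit of the ATP synthase, gave 0.80 ± 0.16 at 230535_s_at (0.00985) and 0.04 ± 0.12 at 217801_at. UQCR10 of complex III gave 0.62 ± 0.11 at 228142_at (0.00517) and -0.004 ± 0.09 at 218190_s_at. ATP5MG, the g subunit, gave 0.58 ± 0.13 at 208745_at (0.018) and -0.07 to -0.08 at its 3 other probe sets. SDHC was higher at 238056_at (0.67 ± 0.19, 0.0402) and 238191_at (0.61 ± 0.16, 0.0357). The SDHC 238056_at estimate was 0.28 without the control array at 0 hr. No difference between 2 probe sets of a gene was tested.

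**Figure D4:**
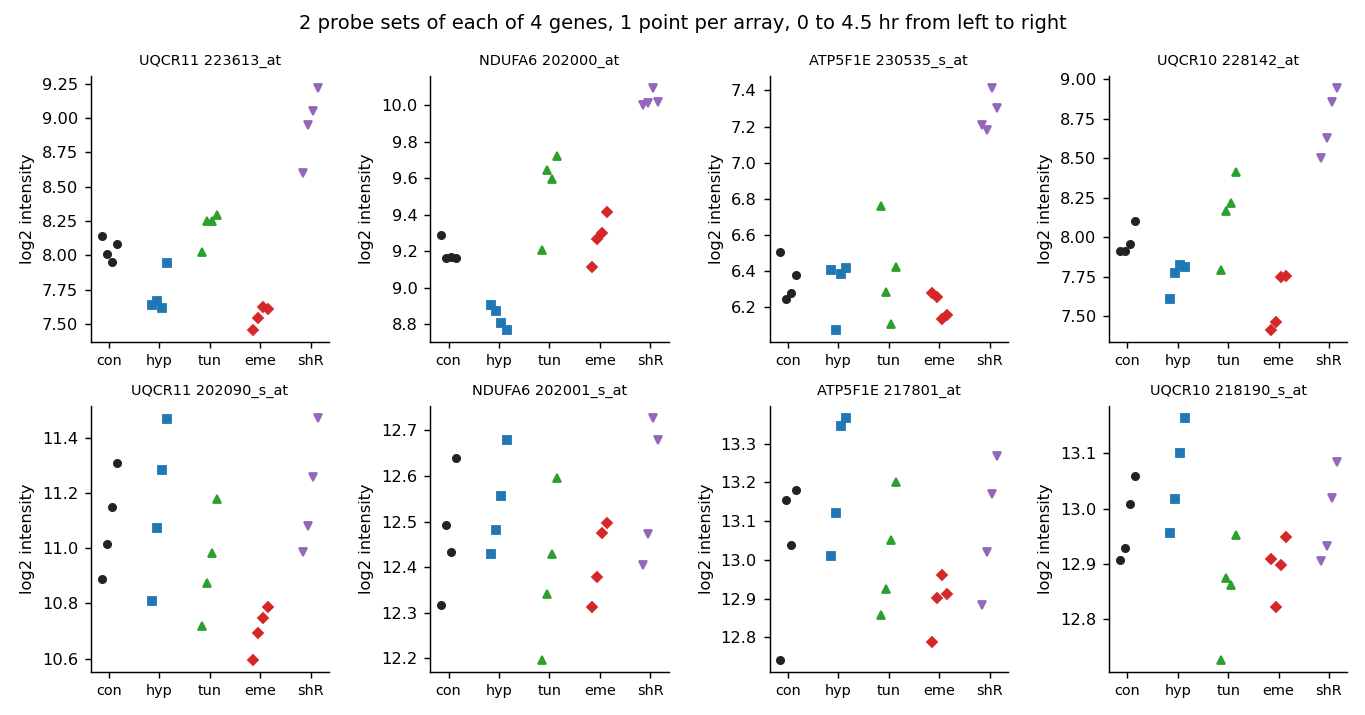
Log2 intensity (y axis) of 2 probe sets each of UQCR11, NDUFA6, ATP5F1E and UQCR10 in control (con), hypoxia (hyp), tunicamycin (tun), emetine (eme) and shRent1 (shR), 1 point per array with the 4 times from left to right. In the upper row the 4 shRent1 arrays lie above all control arrays; in the lower row they overlap control. Axes do not start at 0.

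Probe sets of 1 gene also moved apart after DRB. Of 43 genes with more than 1 tested probe set, 19 in control had some called and some not, 8 had all called the same way and 15 had none called. NDUFB1 and SDHC had calls of opposite sign. ATP5F1C, the gamma subunit that turns inside the ATP synthase, had the steepest fall of all members at 214132_at: 7.82, 5.60, 4.82 and 4.90 in control, 7.99, 6.91, 5.40 and 4.65 in hypoxia, 7.39, 5.07, 4.82 and 3.996 in tunicamycin, 6.50, 5.51, 4.95 and 4.74 in emetine and 8.06, 5.35, 4.61 and 4.55 in shRent1. Most of the fall came in the first 1.5 hr in all conditions but hypoxia, and the late values lie near the filter level. At 205711_x_at the same gene read 12.44, 12.60, 12.55 and 12.66 in control. Slopes in control were -0.63 ± 0.17 at 214132_at (limma adjusted p = 0.0176) and 0.04 ± 0.02 at 205711_x_at, which did not pass. Without the control array at 0 hr the first was -0.23 and did not pass. NDUFB1, an accessory subunit of complex I, fell by 0.29 per hr at 243630_at in control (adjusted p = 0.0442) and rose by 0.11 at 206790_s_at (0.00704).

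**Figure D5:**
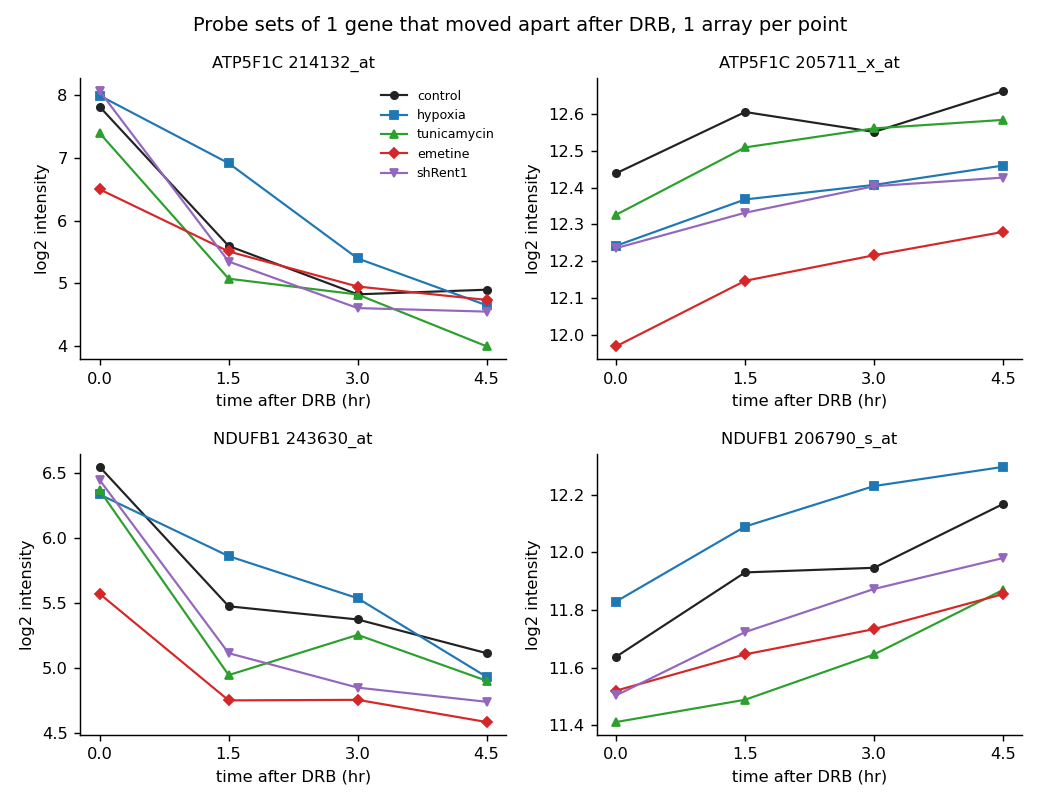
Log2 intensity (y axis) against hours after DRB (x axis) at 2 probe sets of ATP5F1C and 2 of NDUFB1, 1 line per condition and 1 array per point. The left panels fall steeply, and the right panels rise slightly over ranges of under 1 log2 unit; y axes differ and do not start at 0.

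Other genes of the pathway were read from lists of related genes. With members left out, 46 further assembly and electron carrier genes had 80 tested probe sets. Of these 10 rose and 12 fell in control, and 7 had a slope above control in emetine. The 10 and the 7 are 12.5% and 8.75% of the 80, near the 11.2% and 8.31% of all probe sets, and the 12 are likewise near the 13.9% of all that fell. SCO2, a copper chaperone of complex IV, fell by 0.54 ± 0.04 per hr in control (limma adjusted p = 2.6e-06), and its slope in emetine was higher by 0.53 ± 0.04 (3.32e-05). COA7, another complex IV assembly factor, fell by 0.57 ± 0.05 per hr in control (1.04e-05). In shRent1 14 of the 80 were higher and 1 lower at DRB addition (17.5% and 1.25%, against 7.24% and 2.51% of all), with COX15 at 0.80 ± 0.12 (0.00188). UQCC1, an assembly factor of complex III, was lower in emetine (-1.96 ± 0.18, adjusted p = 7.21e-06). Cytochrome c itself, CYCS, gave 0.83 ± 0.16 in shRent1 (0.00653), -0.69 ± 0.16 in hypoxia (0.0223) and -0.79 ± 0.16 in emetine (0.00196) at 229415_at, a probe set named after its values were seen. Its 208905_at passed in emetine (-0.41 ± 0.10) and in neither of the others.

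Of 56 tested probe sets of 20 regulators of respiratory genes, 2 rose and 13 fell in control, 3.57% and 23.2% against 11.2% and 13.9% of all probe sets. PPRC1, a coactivator of the PGC-1 family, fell by 0.75 ± 0.06 per hr in control (limma adjusted p = 6.8e-06), and the mitochondrial transcription factor TFB2M by 0.30 ± 0.04 (7.14e-05). The PPRC1 slope was higher in emetine by 0.71 ± 0.06 (4.54e-05). TFAM, which packages mitochondrial DNA, was lower in hypoxia (-0.69 ± 0.13, adjusted p = 0.0107). Of 28 tested probe sets of 15 citric acid cycle genes 8 rose and 0 fell in control (28.6% rising, against 11.2%), led by IDH2 (0.19 ± 0.03 per hr, 0.000294). Of 37 tested probe sets of 19 genes of the hypoxic switch of respiration 10 were higher and 1 lower in hypoxia, 27.0% and 2.7% against 2.35% and 4.4% of all probe sets.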

How the data were processed

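Biotin-labelled RNA was read on 20 Affymetrix 3' expression arrays. The deposited table holds 1 linear intensity per probe set and array, made by the authors with RMA (named without a version in the submitters' processing notes). This method corrects background, normalizes between arrays and summarizes probes, so losses shared by most transcripts after DRB are removed. Its precision here is limited by 1 array per condition and time. Values were taken to log2. Symbols come from the platform annotation, and 18 probe sets with several symbols, 4 of non-coding genes and 2 of pseudogenes were left out.

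Probe sets with a mean above the 40th percentile (log2 4.70) were tested, 32770 in all. In limma 3.58.1 (R 4.3.3; lmFit, eBayes) levels and slope differences came from time as a factor, condition and a time line per condition (8 residual degrees of freedom), and slopes from a line per condition (10). P-values were adjusted by Benjamini-Hochberg. The fits were tested on simulated data.

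Alternatives were the 60th percentile, no filter, quantile normalization, centring on ribosomal proteins, trended robust eBayes, the mean over 4 times and leaving out each array. Members and lists were chosen with earlier results of these data known. Named probe sets are, per level or slope difference, the 3 highest and 3 lowest past the threshold (2 by statistic where none passed), the same per slope, chosen subunits and, per list and condition, the 2 with the largest statistics; others in the text were named after their values were seen. Sequences are RefSeq's.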

Additional observations from a re-analysis of the deposited data

Results flagged for a closer look

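Single arrays stood apart from the other 3 of their condition in 9 of 215 condition groups examined (43 probe sets in 5 conditions), where chance alone flags about 1 group in 20. As these are time courses, the earliest or latest array can stand apart. NDUFV3 226616_s_at read 10.08 in control at 4.5 hr and NDUFA6 202000_at 9.29 in control at 0 hr. In hypoxia UQCR11 223613_at read 7.94 at 4.5 hr, ATP5F1E 230535_s_at 6.08 at 1.5 hr and NDUFS1 203039_s_at 9.73 at 0 hr. In tunicamycin UQCR11 223613_at read 8.02 at 0 hr, SDHD 202026_at 11.92 at 4.5 hr and COX4I2 232761_at 5.56 at 4.5 hr. In emetine NDUFA7 202785_at read 9.53 at 0 hr.

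The other flagged results are slopes after DRB that differed from control by the test of the difference. In emetine the differences were 0.48 and 0.42 for SDHAF1 (44669_at and 221855_at), 0.48 and 0.35 for NDUFAF4 (227559_at and 219006_at), 0.26 for SDHAF2, 0.20 for NDUFAF1 and 0.18 for NDUFV3 226209_at. In tunicamycin they were 0.42 and 0.29 for NDUFAF4 (227559_at and 219006_at) and 0.24 for SDHAF1 221855_at.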

How the results depend on the processing

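Counts of members past the threshold moved with the settings, and the cause was not tested unless named. Without the filter on low signals 3 members differed in level in hypoxia, and 1664 of all probe sets did. With trended robust eBayes the level counts were 15 for hypoxia, 7 for tunicamycin, 58 for emetine and 21 for shRent1. The slope counts were 81 in tunicamycin and 3 in emetine. Of all 32770 probe sets 3338, 996, 12093 and 4004 passed for these levels and 6451 and 560 for these slopes. As a mean over the 4 times, the level counts were 29, 23, 99 and 33 in the same order of conditions. Over all probe sets they were 6397, 5835, 19717 and 8874. Centring on ribosomal proteins gave 23 in emetine for the level, and for the slopes 28 in control, 36 in hypoxia, 20 in tunicamycin and 24 in shRent1. All probe sets gave 10533 for this level, and 5899, 5771, 3778 and 4898 for these slopes. The filter at the 60th percentile and quantile normalization each gave 1 slope in emetine, where 345 and 482 of all probe sets passed. Leaving out 1 array in turn, which removes a time point and so leaves fewer samples, gave level counts of 0 to 11 in shRent1, 1 to 7 in hypoxia, 3 to 37 in emetine and 0 to 0 in tunicamycin. Slope counts were then 7 to 64 in control, 5 to 60 in hypoxia, 2 to 61 in tunicamycin, 0 to 0 in emetine and 4 to 62 in shRent1. Counts of slope differences were 0 to 3 in tunicamycin and 4 to 8 in emetine. These ranges stand without the shares of all probe sets and are not results about the members as a group. No named value that passed reversed its sign under any of these settings. Replicate numbers stand for the times, and the fits of levels and slope differences already hold time as a factor, so no further block was added. Signal near the background limits probe sets close to log2 4.70, where changes are understated.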
